A study of Gallus gallus with 28 samples.

Results

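In broiler chicks of 10 days whose parents had not been heat conditioned, 2 challenges of 6 h were set against each other by RNA counts from the anterior preoptic part of the hypothalamus: lipopolysaccharide (LPS) put into the third ventricle of the brain, and a move from 30 °C to 36 °C. The comparison holds 6 of the 28 samples of the series, chosen by their labels: LPS libraries 1, 2 and 3 and heat libraries 1, 2 and 3, each number being the replicate number of the title. All 6 libraries come from chicks that were not conditioned themselves and were sampled at 6 h, so elapsed time is matched between the sides. The heated chicks are not stated to have been injected, so that an effect of LPS cannot be told apart from one of injection into the ventricle, nor can the difference be split into what LPS did and what heat did without the unchallenged chicks (t0, 3 libraries), whose levels are given below for orientation. The same contrast in chicks of conditioned parents (3 LPS and 3 heat libraries) shares no library with this one. Those chicks differ in that their parents had been heat conditioned as embryos. Each library is a lysate of whole tissue, which makes fewer cells of a type and less RNA per cell indistinguishable. The labels do not say whether a library is 1 chick.

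LPS is a part of the outer membrane of Gram-negative bacteria. In vertebrates it is sensed by Toll-like receptor 4, which acts through NF-κB to switch on genes of cytokines, chemokines and acute phase proteins, and in the preoptic area the prostaglandins made in that response set fever in motion. Heat reaches the same area through warm-sensitive neurons that drive panting and other heat loss, and in heated cells heat shock factors switch on chaperone genes. Both challenges therefore meet in the tissue that sets body temperature. The table gives Ensembl identifiers without names, and 0 of its 11207 identifiers could be paired with the reference gene table used here. Gene names, pathway lists and cell type markers are therefore not used here, the identity of the tissue was not checked against markers, and genes are given by identifier.

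Total counts were 1841024 to 2154313 in the LPS libraries and 1145375 to 2725127 in the heat libraries, with 10551 to 10609 and 10208 to 10703 genes counted. Levels are CPM, counts scaled to a library of fixed size, here with TMM factors, and 7921 genes passed the filter on low counts. Across these genes, which are not independent replicates, the 3 pairs of LPS libraries correlated at r = 0.955 to 0.962 on a log2 scale (pseudocount 0.5), the 3 pairs of heat libraries at 0.931 to 0.950, and the 9 pairs of an LPS with a heat library at 0.920 to 0.948. The heat libraries thus differed among themselves about as much as they differed from the LPS libraries over all genes tested. On the first principal component of these 6 libraries (33.3% of the variance) LPS libraries 1, 2 and 3 lay at 19.4, 24.3 and 26.5, against -36.8, -18.6 and -14.7 for heat libraries 1, 2 and 3. The second component (26.4%) lay mainly between heat libraries, from -43.1 in heat library 3 to 22.4 in heat library 1. On it LPS libraries 1, 2 and 3 lay at 14.8, 11.5 and -10.6, so that library 3 was lowest on both sides.

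LPS-injected chicks stood apart from heated chicks in a small set of genes, most of them much higher with LPS. Of the 7921 genes tested, 139 (1.75%) differed, 123 of them higher with LPS (1.55%) and 16 lower (0.202%), by edgeR's quasi-likelihood test with a Benjamini-Hochberg adjusted p under 0.05. Among the higher genes 110 passed 2-fold, 50 passed 4-fold and 21 passed 16-fold, and the median log2 fold change was 1.74. Among the lower genes 10 passed 2-fold, 2 passed 4-fold and 0 passed 16-fold, and the median was -1.25. In all 123 every LPS library lay above every heat library, as in 8.62% of all genes tested, and in all 16 every LPS library lay below, as in 6.25%. The genes were called on these same libraries, so that this separation largely follows from the calling and is no further evidence for it. The median over all genes tested was -0.01. At an unadjusted p under 0.05 there were 740 genes. Without heat library 1 the test called 87 genes (76 higher, 11 lower), and without LPS library 2 it called 81 (72 higher, 9 lower). The 16 lower genes were also fewer without LPS library 1 (8) and without heat library 2 (10). There were 10 after thinning to the smallest total and with a block on the library label number, and 26 with DESeq2 and with voom.

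**Figure D1:**
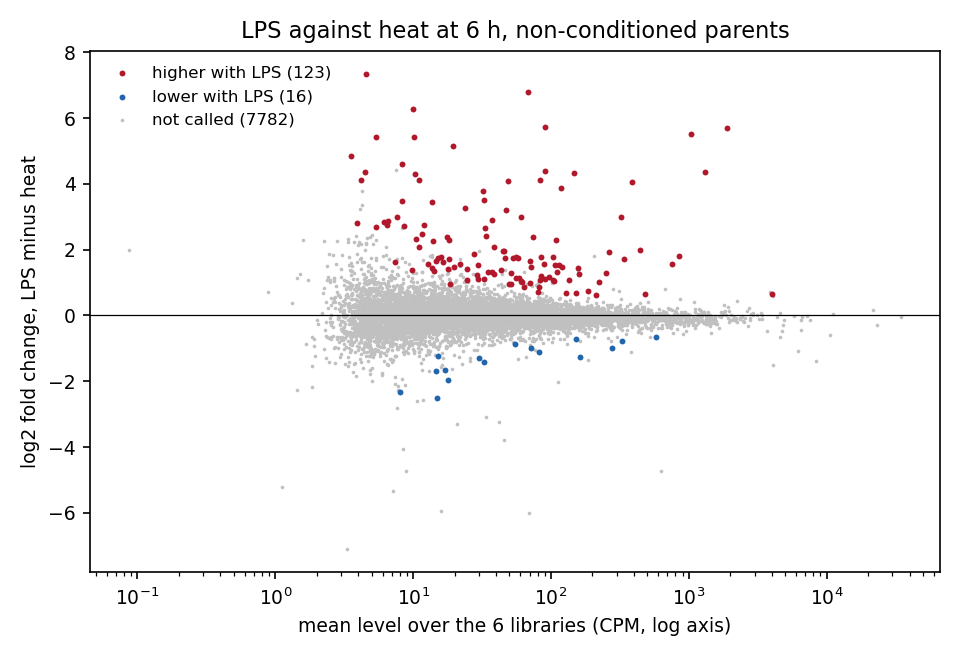
Log2 fold change of LPS minus heat (vertical axis) against the mean level over the 6 libraries in CPM (horizontal log axis), 1 point per gene tested. The 123 genes higher with LPS reach a log2 fold change of 7.32, while the 16 lower genes end at -2.50.

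For most other genes the data bound the difference rather than leave it unknown. The 95% interval of the log2 fold change lay between -1 and 1 for 4989 genes, or 63.0% of those tested, so that a 2-fold difference between LPS and heat was outside the interval of each of them. For 2343 genes (29.6%) the interval lay within 1.5-fold. The intervals are taken gene by gene and not adjusted for their number. The remaining 2932 genes had intervals that reached past 2-fold, and 4 of the 139 called genes lay within 2-fold on both ends.

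Called genes were found at low and high mean levels, where the mean is over the LPS and heat libraries together. Of the 1779 genes with a mean under 10 CPM over the 6 libraries, 17 were higher with LPS and 1 was lower. Between 10 and 100 CPM there were 75 higher and 10 lower genes of 4422, and between 100 and 1000 CPM 27 higher and 5 lower genes of 1561. Of the 159 genes at 1000 CPM or more, 4 were higher and 0 lower, and the median log2 fold change of the 4 was 4.94. Since the mean includes the LPS libraries, a gene much higher with LPS enters a higher class partly through them. In the heat libraries alone, 13 of the 123 higher genes had a mean over 100 CPM. The standard error narrowed with the level, from a median of 0.52 log2 units in the lowest class to 0.14 in the highest, which limits what could be called among low genes. With LPS the 123 higher genes had a median of 70.6 CPM, against 17.5 CPM with heat, while all genes tested had medians of 30.4 and 29.6 CPM. Levels over 1000 CPM were reached by 6 of the 123 with LPS, the highest at a mean of 4875 CPM, and 10 of them had a mean under 1 CPM with heat. One of these had no count in any heat library, and 7 had 1 to 3 counts over the 3 heat libraries. With the gene without counts set to a floor of 3 counts over the heat libraries, the median log2 fold change is 1.74, which a change to 1 extreme gene cannot move. The folds of the 7 were left as fitted and are poorly bounded.

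The higher genes held a visible part of the transcriptome. They took 2.80%, 3.00% and 2.65% of all counts in LPS libraries 1, 2 and 3, against 0.720%, 0.780% and 0.819% in heat libraries 1, 2 and 3. The 5 most abundant of them made up 51.3% of the summed LPS level of the set, and the largest alone 17.4%. The 16 lower genes took 0.122%, 0.143% and 0.127% of the counts in the LPS libraries and 0.225%, 0.228% and 0.245% in the heat libraries. The sides do not overlap in either sum, but the genes were picked for that difference in these libraries. The libraries of conditioned parents entered that choice only through the shared spread and the low-count filter. In them the higher genes took 3.07%, 2.88% and 2.35% of the counts with LPS, against 0.744% to 0.81% with heat. There the lower genes took 0.157%, 0.186% and 0.176% with LPS and 0.224%, 0.195% and 0.234% with heat, again without overlap and with a smaller gap. In the non-conditioned lineage 1 gene made up 34.7% of the summed LPS level of the 16, so that the sum need not stand for each gene. Gene by gene, 6 of the 16 had every LPS library below every heat library in the conditioned lineage.

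**Figure D2:**
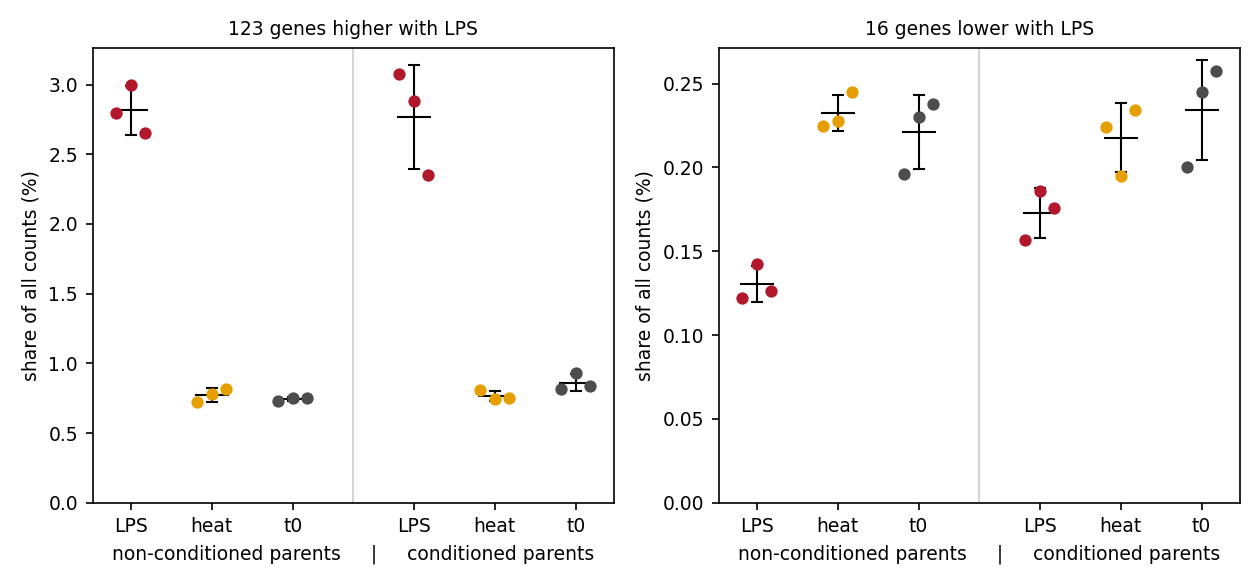
Share of all counts (%, vertical axis) taken by the 123 genes higher with LPS and by the 16 genes lower with LPS in chicks of non-conditioned parents, in each library (points) with the mean and SD (n = 3) of LPS, heat and t0 groups of both lineages. The higher genes take 2.35% or more in all 6 LPS libraries and 0.929% or less in the 12 heat and t0 libraries.

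By the rule for named genes, the largest differences were those of ENSGALG00000028256.2 and ENSGALG00000034478.1 among 106 eligible higher genes. ENSGALG00000028256.2 stood at 70.3, 193 and 143 CPM in LPS libraries 1, 2 and 3 and at 0, 1.13 and 2.13 CPM in heat libraries 1, 2 and 3, which is 784 counts against 6. Its level was near the limit of detection after heat and uneven among the LPS libraries. LPS exceeded heat by 6.79 ± 0.65 log2 units (SE, edgeR adjusted p = 1.6e-06). ENSGALG00000034478.1 stood at 227, 161 and 143 CPM with LPS and at 3.67, 3.38 and 2.84 CPM with heat (log2 fold change 5.72 ± 0.45, edgeR adjusted p = 7.4e-08). Both kept their calls in all 17 alternatives run. In the conditioned lineage the first gene averaged 102 ± 45.8 CPM with LPS and 0.932 ± 0.540 CPM with heat, and the second 118 ± 50.2 and 2.54 ± 0.807 CPM (SD, n = 3 each). The log2 fold changes there, 6.55 ± 0.64 and 5.47 ± 0.45, lay within 1 SE of those above.

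Among 15 eligible lower genes, the largest differences by the same rule were those of ENSGALG00000045989.1 and ENSGALG00000001177.5. ENSGALG00000045989.1 stood at 4.65, 4.30 and 4.17 CPM in LPS libraries 1, 2 and 3 and at 40.4, 25.6 and 9.93 CPM in heat libraries 1, 2 and 3 (log2 fold change -2.50 ± 0.59, edgeR adjusted p = 0.0287). The LPS libraries were nearly alike, and the heat libraries spread widely with library 1 highest. At t0 its levels were 7.43, 2.18 and 2.26 CPM, close to those with LPS. In the conditioned lineage the sides overlapped, at 4.49, 8.06 and 6.62 CPM with LPS and 8.39, 2.63 and 16.5 CPM with heat (-0.67 ± 0.60, edgeR adjusted p = 0.862). Its call was lost in 7 of 17 alternatives, within a range of edgeR, DESeq2 and voom adjusted p from 0.00295 to 0.157: without heat library 1 (0.157) or 2 (0.0933), without LPS library 1 (0.108), 2 (0.122) or 3 (0.113), with a block on the library label number (0.149) and after thinning to the smallest total (0.0944). ENSGALG00000001177.5 stood at 4.19, 8.06 and 9.38 CPM with LPS and at 38.5, 23.7 and 23.4 CPM with heat (-1.96 ± 0.38, edgeR adjusted p = 0.00656), and at 33.7, 28.9 and 30.8 CPM at t0. Here the heat and t0 libraries were alike and the LPS libraries low, and the call held in all 17 alternatives.

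**Figure D3:**
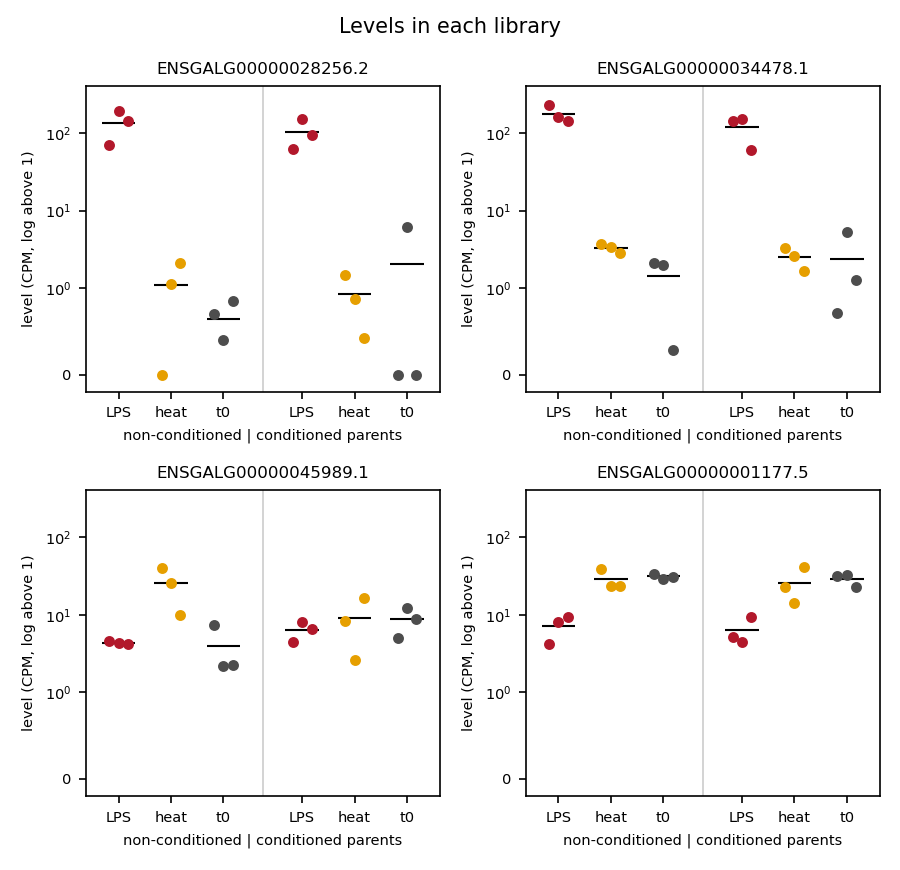
Level of each of the 4 genes named by rule in every library (CPM, vertical axis, logarithmic above 1 and linear below), with group means as lines, for LPS, heat and t0 in chicks of non-conditioned and conditioned parents. The higher pair stands at 60.3 CPM or more in all LPS libraries, while ENSGALG00000045989.1 is highest in heat libraries 1 and 2 of non-conditioned parents, at 40.4 and 25.6 CPM, and at 16.5 CPM or less in all others.

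The levels at t0 are given beside those of the challenges as descriptions of group means on the log2 scale. The t0 chicks were taken at 0 h and the others at 6 h, so that a distance from t0 cannot be told apart from the effect of elapsed time, nor for LPS from that of injection. The genes were chosen on the LPS and heat libraries for a large gap between them. Positions of t0 were not counted over all genes tested, so the counts below have no such share beside them and describe these genes only. Of the 123 higher genes, t0 lay nearer to heat in 119 and nearer to LPS in 4. It lay below both challenges in 67, between them in 56 and above both in 0. The median distance of these genes was 1.85 log2 units between LPS and t0 and 0.27 between heat and t0. Of the 16 lower genes, t0 lay nearer to heat in 12 and nearer to LPS in 4, between the challenges in 10, above both in 4 and below both in 2. Their median distances were 0.89 between LPS and t0 and 0.33 between heat and t0.

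The 8 called genes with t0 nearer to LPS are named after their values were seen. In 6 of them t0 lay between LPS and heat. Higher with LPS were ENSGALG00000042810.2 (74.1 ± 17.8 CPM with LPS, 29.1 ± 11.01 with heat and 58.8 ± 12.3 at t0), ENSGALG00000033570.1 (44.3 ± 4.36, 20.8 ± 2.67 and 33.3 ± 4.32 CPM in the same order) and ENSGALG00000001717.6 (81.9 ± 20.9, 39.6 ± 3.77 and 61.9 ± 6.22 CPM; SD, n = 3 each). ENSGALG00000042863.2 stood at 206, 227 and 264 CPM in the LPS libraries, at 118, 134 and 168 CPM in the heat libraries and at 249, 187 and 228 CPM at t0. It is the 1 gene of the 123 with an estimate of the opposite sign in the conditioned lineage (0.73 ± 0.16 for non-conditioned and -0.12 ± 0.15 for conditioned parents, with edgeR adjusted p = 0.0157 and 0.911). The lower genes of this kind, beside ENSGALG00000045989.1, were ENSGALG00000030776.1 (116 ± 22.3 CPM with LPS, 190 ± 12.6 with heat and 139 ± 6.65 at t0), ENSGALG00000009312.5 (38.9 ± 5.81, 71.1 ± 8.39 and 47.1 ± 11.2 CPM) and ENSGALG00000010243.5 (52.2 ± 1.98, 111 ± 37.4 and 49.7 ± 3.22 CPM). None of the 8 differed between heat and t0 by edgeR (adjusted p 0.0909 to 0.576), nor between LPS and t0 (0.462 to 0.985), so that only the direct contrast passed. Of the 8, ENSGALG00000001717.6 alone kept its call in all 17 alternatives, and the others lost it in 5 to 9 of them.

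Chicks of conditioned parents gave the same contrast from other libraries, though the spread and the low-count filter were shared with the non-conditioned lineage. In the conditioned lineage 116 genes were higher with LPS and 7 were lower, 1.46% and 0.0884% of the genes tested. Of the 123 genes higher with LPS in the non-conditioned lineage, 122 had an estimate above 0 in the conditioned lineage, where 49.1% of all genes tested had one, and 93 were called higher. In 114 of the 123 every LPS library of the conditioned lineage lay above every heat library, as in 7.54% of all genes tested. The median of the 123 was 1.74 log2 units in chicks of non-conditioned parents and 1.73 in those of conditioned parents. The 30 genes not called there had 29 estimates above 0, and medians of 1.33 in the non-conditioned lineage and 0.87 in the conditioned one. Both lineages chose these 30, by a call in the former and by its absence in the latter, which widens that gap. The 93 genes called in both had medians of 1.96 in the non-conditioned lineage and 2.17 in the conditioned one. Read the other way, 115 of the 116 genes called higher in the conditioned lineage had an estimate above 0 in the non-conditioned one, where 49.1% of all genes did. Leaving out 1 library of the 12 in turn gave 63 to 83 genes called higher in both lineages, 64 without heat library 1 and 63 without LPS library 2 of the non-conditioned lineage. Fits to the 6 libraries of each lineage alone gave 75.

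Of the lower genes a smaller part was called again. All 16 had an estimate below 0 in the conditioned lineage, where 50.9% of all genes tested had one, but 5 were called, and 6 had every LPS library below every heat library (6.20% of all genes tested). Their median was -1.25 in the non-conditioned lineage, which chose them, and -0.34 in the conditioned one. Over the alternatives, the share of genes called lower that had an estimate below 0 in the conditioned lineage ranged from 80% (8 of 10, after thinning) to 100%. The 5 genes lower in both were ENSGALG00000001177.5, ENSGALG00000006190.5, ENSGALG00000011484.5, ENSGALG00000024449.4 and ENSGALG00000036686.1, named here since they are so few. ENSGALG00000036686.1 stood at 5.58, 7.53 and 7.82 CPM with LPS and at 20.2, 21.8 and 24.8 CPM with heat, a difference of -1.68 ± 0.30 log2 units (edgeR adjusted p = 0.00276), with -1.56 ± 0.28 in the conditioned lineage. ENSGALG00000024449.4 stood at 13.03, 22.0 and 18.2 CPM with LPS and at 48.6, 45.9 and 48.9 CPM with heat (-1.43 ± 0.29, edgeR adjusted p = 0.0107, and -1.47 ± 0.29 in the conditioned lineage). It lost its call without LPS library 1 (edgeR adjusted p = 0.0749, the highest of a range from 0.000411). For both genes the LPS libraries stood low while heat and t0 were alike or, for the first gene, t0 was higher still, at 32.4 ± 1.22 CPM (SD, n = 3). ENSGALG00000011484.5 differed by -1.65 ± 0.29 and ENSGALG00000006190.5 by -2.34 ± 0.51 (edgeR adjusted p = 0.00219 and 0.0173). After thinning ENSGALG00000036686.1 (edgeR adjusted p = 0.116, range from 0.000113) and ENSGALG00000011484.5 (0.0882, range from 0.000101) lost their calls. ENSGALG00000006190.5 rests on 15 counts in the LPS and 64 in the heat libraries and lost its call without heat library 1 (edgeR adjusted p = 0.102), without LPS library 1 (0.0856), 2 (0.0705) or 3 (0.0686) and after thinning (0.109), within a range from 0.00315. The count of 5 became 2 without LPS library 1 of either lineage, 3 without LPS library 2 of either, without LPS library 3 of the non-conditioned or heat library 1 or 3 of the conditioned lineage, and 1 after thinning. It was also 3 with voom, in fits to the 12 challenged or the 6 compared libraries and with either replicate block.

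**Figure D4:**
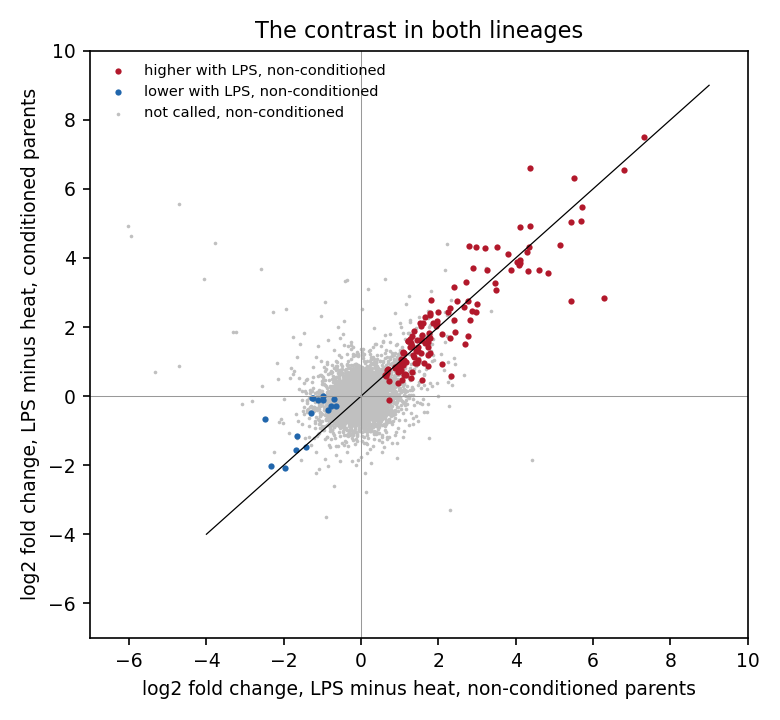
Log2 fold change of LPS minus heat in the non-conditioned (horizontal axis) and conditioned lineage (vertical axis), 1 point per gene tested, with the line of equal values and 3 genes outside the axes. Of the 123 higher genes 122 lie above 0 on the vertical axis, and all 16 lower genes lie below it.

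The contrast was also tested for a difference between the lineages, given as conditioned minus non-conditioned. No gene passed with edgeR (0 calls, the lowest adjusted p being 0.816, and 303 genes with an unadjusted p under 0.05), none with voom (0), and 1 with DESeq2. The log2 fold changes of both lineages correlated across all genes at r = 0.41 (Pearson) and rho = 0.21 (Spearman), and across the 7757 genes called in neither at r = 0.10. These correlations are across genes and are descriptions.

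Heat against t0 in the non-conditioned lineage called 4 genes, all higher with heat, which is 0.0505% of the genes tested. The contrasts with t0 were not run under the alternatives. Total counts were 3379626 to 4589179 in the t0 libraries, against 1145375 to 2725127 with heat and 1841024 to 2154313 with LPS. All 4 were also called higher with LPS against the same t0 libraries, where 2.21% of all genes tested were. With LPS they exceeded t0 by 2.24 ± 0.31 log2 units for ENSGALG00000023818.4, 1.43 ± 0.22 for ENSGALG00000011715.5, 0.73 ± 0.12 for ENSGALG00000033789.2 and 1.22 ± 0.21 for ENSGALG00000009433.6 (edgeR adjusted p 0.000125 to 0.00104). With heat they exceeded t0 by 2.43 ± 0.31, 1.78 ± 0.22, 0.98 ± 0.12 and 1.35 ± 0.21 for the same genes in that order (edgeR adjusted p 0.00066 to 0.00603). Both challenges share the t0 libraries and the 6 h since t0, so that a rise made by a challenge cannot be told apart from one over that time. The 4 genes were picked for exceeding these t0 libraries, which favours LPS over t0 as well. The 2.21% of all genes is therefore not a like yardstick. The levels at t0 were 79.3 ± 10.02, 178 ± 32.1, 407 ± 38.1 and 58.9 ± 8.11 CPM in that order (SD, n = 3). In the conditioned lineage ENSGALG00000023818.4 averaged 117 ± 37.99 CPM with heat and 121 ± 9.80 CPM at t0 (SD, n = 3 each). There ENSGALG00000011715.5 averaged 222 ± 34.6 and 226 ± 7.09 CPM, and ENSGALG00000009433.6 66.2 ± 15.8 and 60.4 ± 8.43 CPM, in the same order. ENSGALG00000033789.2 was higher with heat there, at 503 ± 50.2 CPM against 372 ± 30.8 CPM at t0. In the non-conditioned lineage ENSGALG00000023818.4 stood at 311, 488 and 321 CPM in LPS libraries 1, 2 and 3 and at 461, 258 and 565 CPM in heat libraries 1, 2 and 3. ENSGALG00000011715.5 stood at 414, 533 and 490 CPM with LPS and at 694, 424 and 725 CPM with heat. ENSGALG00000009433.6 stood at 133, 124 and 156 CPM with LPS and at 178, 107 and 168 CPM with heat. In all 3 the sides overlapped, heat library 2 being the lowest heat library. ENSGALG00000033789.2 stood at 626, 711 and 682 CPM with LPS and at 762, 827 and 809 CPM with heat, the 1 gene of the 4 whose sides did not overlap.

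LPS minus heat was -0.19 ± 0.30 for ENSGALG00000023818.4 (95% interval -0.81 to 0.43), -0.36 ± 0.21 for ENSGALG00000011715.5 (-0.80 to 0.09), -0.12 ± 0.20 for ENSGALG00000009433.6 (-0.55 to 0.30) and -0.25 ± 0.12 for ENSGALG00000033789.2 (-0.50 to 0.01), on the log2 scale. No adjusted p passed (edgeR, 0.555 to 0.931), and every interval excludes a 2-fold difference in either direction. The estimate changed sign for ENSGALG00000023818.4 without heat library 3 (0.068) and for ENSGALG00000009433.6 without heat library 1 (0.0068). Picking genes for high values in the heat libraries favours heat in this contrast. In the conditioned lineage LPS minus heat was 1.18 ± 0.31 for ENSGALG00000023818.4 (edgeR adjusted p = 0.0647), 0.52 ± 0.22 for ENSGALG00000011715.5 (0.48), 0.20 ± 0.12 for ENSGALG00000033789.2 (0.742) and 0.27 ± 0.21 for ENSGALG00000009433.6 (0.824), with none past the threshold. The difference between the lineages was 1.37 ± 0.43, 0.87 ± 0.30, 0.45 ± 0.17 and 0.40 ± 0.30 for the same genes in that order, each with an edgeR adjusted p of 0.980 over all genes.

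**Figure D5:**
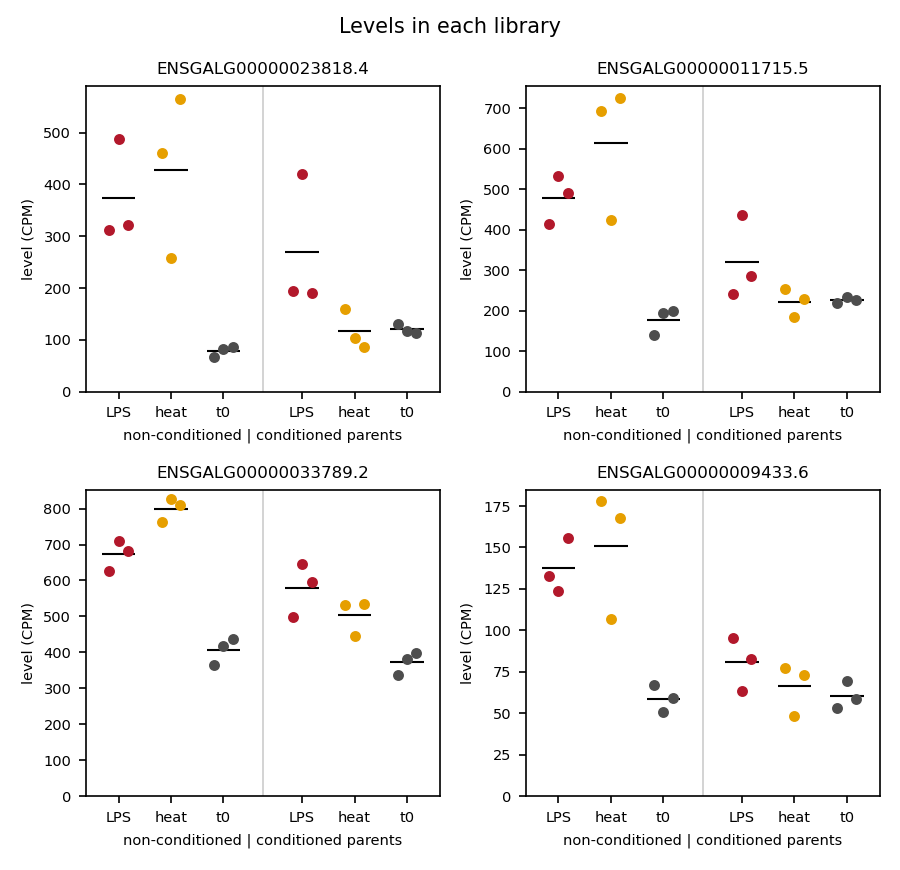
Level (CPM, vertical axis from 0) in every library of the 4 genes called higher with heat than at t0 in chicks of non-conditioned parents, with group means as lines, for LPS, heat and t0 in both lineages. LPS and heat libraries of non-conditioned parents overlap except for ENSGALG00000033789.2, at 626 to 711 CPM with LPS and 762 to 827 CPM with heat.

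The libraries of a side differed among themselves. Of the 123 higher genes, 65 were highest in LPS library 2, 28 in LPS library 1 and 30 in LPS library 3, while over all genes tested the highest library was nearly evenly spread (2513, 2778 and 2630 genes). LPS library 1 was the lowest of the 3 for 62 of the 123, and for 2629 of the 7921 genes tested. The median gap between the highest and lowest LPS library was 0.59 log2 units for these genes and 0.46 for all genes tested. Between the heat libraries it was 0.70 for these genes and 0.56 for all genes tested, with 53 of the 123 highest in heat library 2 and 62 lowest in heat library 1. Of the 7921 genes tested, 2364 were highest in heat library 2 and 2682 lowest in heat library 1. Heat library 1 had the lowest total counts of the 6 libraries (1145375) and heat library 2 the highest (2725127), and 10 of the 123 had a mean under 1 CPM with heat. Whether depth set this order was not tested. The heat libraries also held large single-library values that gave no call. Of the genes that were not called, 23 had estimates over 4-fold lower with LPS, down to a log2 fold change of -7.09, and in 14 of these 1 heat library held over 80% of the summed CPM of the 3 (library 2 in 9, library 1 in 4 and library 3 in 1). In the conditioned lineage 15 of the 23 had an estimate of the opposite sign, where 49.1% of all genes tested were above 0. Of the 24 uncalled genes over 4-fold higher with LPS, 4 had an estimate of the opposite sign there, where 50.9% of all genes tested were below 0. In 1 of the 24 a single LPS library held over 80% of the summed CPM, and of the 16 called lower genes 0 had such a heat library. A wide spread within a side works against a call, so that the 0 of 16 largely follows from the calling. The share over all genes tested was not counted.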

How the data were processed

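Libraries were made from 15 ng of RNA by bulk MARS-seq, a method that reads the 3′ end of poly(A) RNA, and sequenced as 100-base single reads, per the labels' protocols. Per the submitters' processing notes, cutadapt, STAR, HTSeq, DESeq2 and the galGal5 build were used. The sources used here give no versions and do not say whether molecular identifiers were collapsed or strand was used, so overlapping genes and paralogs could not be judged. Per the file headers, the deposited table holds raw counts and a second block of normalized counts, called normalized signal here. It was taken to be each library's counts divided by 1 factor, which was estimated here. The signal served for alternatives only.

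Counts were TMM-normalized, filtered by group (7921 of 11207 genes, 99.5% of counts) and tested with edgeR 4.0.16 (R 4.3.3) in a group-means model over the 18 RNA libraries, 3 per group. In the contrast of LPS with heat in the non-conditioned lineage, t0 libraries and those of conditioned parents entered only the shared spread and the filter. LPS and heat were also each set against t0 in the same model, for which no alternatives were run. A standard error is the size of the log2 fold change over the root of its F. Adjustment was by Benjamini-Hochberg over all genes tested. Methylation libraries (10) are not analysed here. Named genes had an adjusted p under 0.05, a mean of at least 10 CPM over the 6 libraries and sides that did not overlap. Of these, 2 were taken from each direction by size, since identifiers have no names, and the fixed gene lists could not be applied. Genes behind counts of 5 or fewer, and 8 genes singled out by their t0 level, were named after their values were seen. The members, lists and rules were chosen with earlier results of these data known. Alternatives were other factors, filters, tools (DESeq2 1.42.0, voom of limma 3.58.1), fewer libraries, thinning, replicate blocks and leaving out each library. Nothing in the labels says that libraries come from separate animals, so p-values measure the spread between libraries, which may be technical.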

Additional observations from a re-analysis of the deposited data

How the results depend on the processing

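The 139 calls between LPS and heat in the non-conditioned lineage became 81 to 107 when 1 library was left out (81 without LPS library 2, 87 without heat library 1) and 99 to 169 under the other alternatives, which include DESeq2 (167, sharing 138), a fit without t0 libraries (138, sharing 127), a fit to the 6 libraries (123, sharing 113) and 1 thinning of all libraries to 828424 counts (99, sharing 92). In the conditioned lineage the 123 calls ranged from 91 to 159. Genes called in both lineages in 1 direction, 98 in number, ranged from 66 to 110. The difference between lineages stayed at 0 calls except with DESeq2, which called 1. A fit to 6 libraries could not be made for that difference. For the 19 genes named in this contrast, of all estimates 261 kept direction and side of the threshold, 58 lost the call and 4 changed sign: ENSGALG00000023818.4 with voom (0.075) and without heat library 3 (0.068; range without 1 library -0.46 to 0.068), and ENSGALG00000009433.6 with voom (0.013) and without heat library 1 (0.0068; range -0.33 to 0.0068). The cause was not tested. Ratios of group means from the authors' normalized signal differed from those in CPM by less than the spread between libraries for all 19. That signal was taken to divide each library by 1 factor, in which case this checks the factors once and not each of the 19 genes.

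Whether the replicate numbers pair LPS with heat libraries cannot be decided here. With 3 libraries a side the deviations from a group mean are tied to each other, so their correlations are too. Deviations from the group means correlated at 0.08, 0.02 and 0.24 for numbers 1, 2 and 3, and not every library correlated best with its own number. By the number in the sample description, shared by 2 pairs, LPS library 2 with heat library 1 correlated at 0.082 and LPS library 3 with heat library 3 at 0.24, each the best match of its LPS library. With the replicate block edgeR called 145 genes, and with a replicate block by the number in the sample description 106. Depth limits low genes: under 10 CPM the median SE was 0.52 log2 units.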

Other observations

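The 1 gene that DESeq2 called for a difference between lineages, ENSGALG00000041889.2, was counted in few libraries. It stood at 890 and 658 CPM in heat libraries 1 and 2 of the conditioned lineage, at 1245 CPM in t0 library 2 of the non-conditioned lineage and at 141 CPM in t0 library 3 of the conditioned lineage, and under 10 CPM in the other 14 libraries, 11 of which had no count. In the LPS and heat libraries of the non-conditioned lineage it had 0, 0 and 0.521 CPM and 0, 0 and 0 CPM. EdgeR gave the difference an adjusted p of 0.995 and DESeq2 one of 1.5e-07.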
